A study of Mus musculus with 6 samples.

Results

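Replication-dependent histone genes are the clustered gene copies that supply most histone protein to dividing cells. They were taken here by gene symbol, as the H1 linker genes H1f1 to H1f5 and all symbols of the H2ac, H2bc, H3c and H4c series, with at least 1 count in any of the 6 deposited files. Of 62 matching symbols, 61 met this rule, among 17946 genes with a count and 26214 listed. They comprised 5 H1, 16 H2A, 16 H2B, 12 H3 and 12 H4 genes. The values that chose them were counts in any file, in either direction of change. H2ac21 lay just inside the rule, with 1 count in DMSO replicate 1 and 0 elsewhere, and H2ac1 lay just outside with 0 in every file.

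The cells were immortalized mouse brown preadipocytes, a culture model of heat-producing fat, differentiated with a hormone cocktail that all groups received. On day 7 of differentiation they received 100 nM rotenone, an inhibitor of mitochondrial complex I (NADH dehydrogenase), or the solvent DMSO for 16 h, and gene expression was measured by RNA-seq. The labels describe 3 independent replicates per group without saying if each was its own culture, so the p-values reflect only how far these libraries vary, possibly for technical reasons. The 3 rotenone files held identical counts for every gene, differed by less than the sampling noise and were counted as 1 sample. The design is thus 3 DMSO libraries against a single rotenone library, and all replicate error is that of DMSO.

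Histone proteins package DNA: pairs of H2A, H2B, H3 and H4 form the nucleosome core, and H1 binds the linker DNA where it enters and leaves. Replication-dependent histone genes are mostly intronless, lie in clusters and are transcribed mainly in S phase, when new DNA has to be packaged. Their mRNAs usually end after a conserved 3′ stem-loop, bound by the protein Slbp, in place of a poly(A) tail. Some of these genes also make polyadenylated transcripts, chiefly in differentiated cells. Because the copies of one core type (H2A, H2B, H3 or H4) encode nearly the same protein, many of their mRNAs are hard to tell apart.

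The stem-loop is shown because it is the sequence that the histone types share beyond their protein-coding part. Each line gives the 16 bases of the stem-loop in capitals with 5 flanking bases on either side, from GENCODE M21 transcripts on GRCm38.
H1f2, chr13:23739507-23739532, plus strand: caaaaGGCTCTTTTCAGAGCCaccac
H2ac18, chr3:96246027-96246052, plus strand: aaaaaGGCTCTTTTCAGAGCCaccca
H2bc8, chr13:23571838-23571863, plus strand: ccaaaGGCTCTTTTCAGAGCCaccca
H3c14, chr3:96247322-96247347, plus strand: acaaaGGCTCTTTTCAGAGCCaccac
H4c9, chr13:22040961-22040986, minus strand: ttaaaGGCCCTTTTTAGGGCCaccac
H4c11, chr13:21735432-21735457, plus strand: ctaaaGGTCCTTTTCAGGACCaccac
The H1, H2A, H2B and H3 examples carried the same 16 bases, and the H4 examples had other stems. A match to the histone stem-loop consensus was sought within 150 bases after the stop codon, in the longest coding transcript model of each histone gene. It was found in 41 of 45 histone genes (91.1%), whose models hold at least 60 bases there or a match. Among the other protein-coding genes with at least 60 bases there, 8 of 20674 had a match (0.0387%). These can include histone genes outside the symbol rule, and how many of the 8 are such is not given here. For the other protein-coding genes a match in any transcript model counted, so the searches were not fully alike. Of the 8 forms found, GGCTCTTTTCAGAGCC occurred in 23 genes (3 H1, 9 H2A, 6 H2B and 5 H3) and in no H4 gene, while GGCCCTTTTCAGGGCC occurred in 6 H4 genes. The stem-loop began 21 to 58 bases after the stop codon, with a median of 31. The 4 searched models without a match were H2bc4, H2bc21, H2bc22 and H2bc23, all of the H2B type. The other 16 models were too short to search.

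Promoter sequence is shown for 3 members because the types differ in the motifs found there. Lines give the 120 bases before the annotated start in RefSeq on GRCm38.p6, with motif matches in capitals.
H1f2, chr13:23738687-23738806, plus strand: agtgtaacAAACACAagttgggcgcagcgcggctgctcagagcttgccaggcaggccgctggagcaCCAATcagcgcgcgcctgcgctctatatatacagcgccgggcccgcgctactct
H2bc8, chr13:23571280-23571399, plus strand: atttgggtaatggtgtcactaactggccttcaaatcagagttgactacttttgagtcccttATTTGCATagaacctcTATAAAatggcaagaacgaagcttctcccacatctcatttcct
H3c3, chr13:23745522-23745641, minus strand: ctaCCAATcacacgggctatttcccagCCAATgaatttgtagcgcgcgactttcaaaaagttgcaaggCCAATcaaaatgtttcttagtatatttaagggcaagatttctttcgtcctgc
The motifs below were searched on both strands of the 250 bases before the start, in 57 promoters of 56 members and in all 32851 promoters of the table. The H1 box AAACACA was found in 4 of 5 H1 promoters (80%) and in 6.25% of all promoters. The octamer ATTTGCAT was found in 7 of 15 H2B promoters (46.7%) and 5 of 16 H2A promoters (31.2%), in none of the H1, H3 or H4 promoters, and in 1.6% of all. The letters CCAAT were found in 47 of 57 histone promoters (82.5%) and 33.8% of all, but in only 3 of 11 H4 promoters. The letters TATAAA were found in 27 of 57 (47.4%) and 12.4% of all. None of the motifs is contained in another, though neighbouring matches can share bases, and H2A and H2B genes that face each other share part of their windows, so their matches are not separate.

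Depth was 29194179, 28209306 and 26085061 counts for the DMSO libraries in order of replicate and 21611589 counts for rotenone. At this depth the limit set by 0 counts was 0.103 to 0.139 CPM, where CPM is the count scaled to library size, and this limit covers counting error only, as does the interval given below. Counts were low for most histone genes: 47 of the 61 had fewer than 50 counts in every DMSO library. The adipocyte markers were present, with a summed level of 10360, 9563 and 9368 CPM in the DMSO libraries and 7865 CPM with rotenone. Levels below are CPM on TMM-scaled library sizes unless given per kb.

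The histone genes as a group took a larger share of the library with rotenone. They held 0.0203%, 0.0218% and 0.0199% of all counts in the DMSO libraries and 0.0519% in the rotenone library (exact Clopper-Pearson 95% interval 0.0509% to 0.0529%). Their summed level was 200.2, 212.8 and 194.1 CPM with DMSO, a mean of 202.4 ± 9.5 (SD, n = 3), and 552.6 CPM with rotenone, a ratio of 2.73 (log2 1.45). The rotenone sum lay far above the range of the DMSO sums. Without H2bc4, the highest member, the log2 ratio was 1.25.

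Of the 61 histone genes, 57 passed the filter on low counts and were tested for a difference. With rotenone 36 rose and 1 fell at an adjusted p under 0.05 (edgeR's quasi-likelihood test, Benjamini-Hochberg over all genes), and 20 did not pass. Over all 14709 genes tested, 27.6% were called higher and 28.5% lower. In 53 members the rotenone value lay above every DMSO library, where 41.5% of all genes tested did so, and in 1 it lay below, where 44.7% of all genes did. The median log2 fold change was 1.67 for the tested histone genes and -0.04 for all genes. Since the filter can be passed through the rotenone library alone, these figures describe the tested members and not all 61. The members outside the filter were H2bc18 with 9, 7 and 0 counts in DMSO and 6 in rotenone, H1f1 with 0, 3 and 8 against 6, H3c7 with 6, 0 and 5 against 4, and H2ac21.

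**Figure D1:**
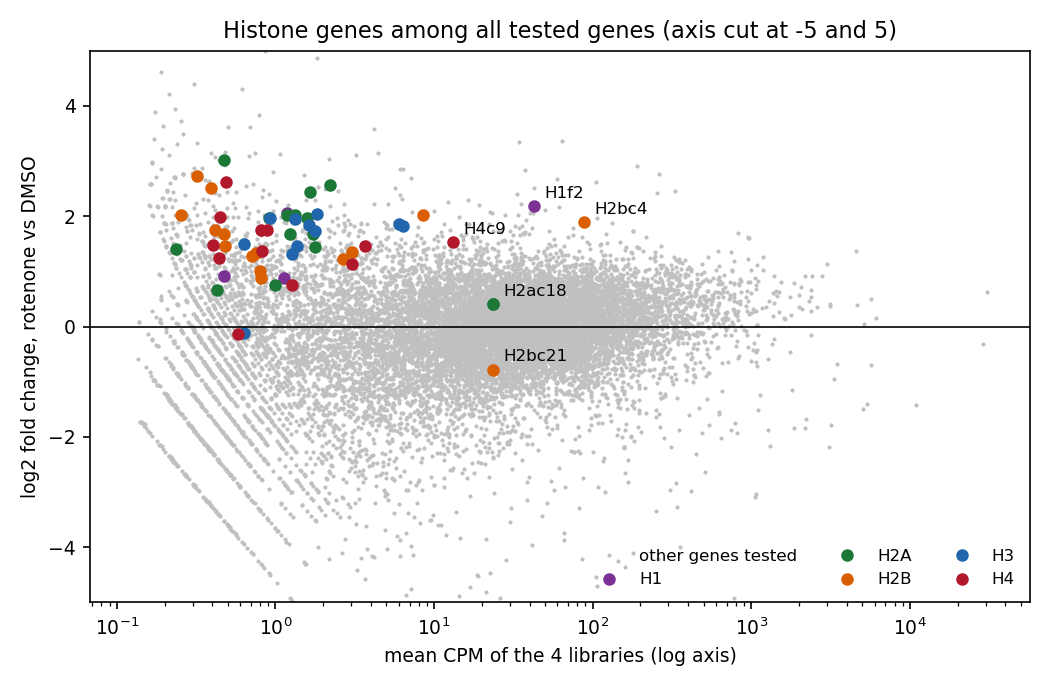
Log2 fold change of rotenone against DMSO (vertical axis) against the mean CPM of the 4 libraries (horizontal, log axis) for all 14709 genes tested, with histone genes coloured by type. Histone genes lie mostly above 0 at every level, and H2bc21 is the clear exception among the highest ones.

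**Figure D2:**
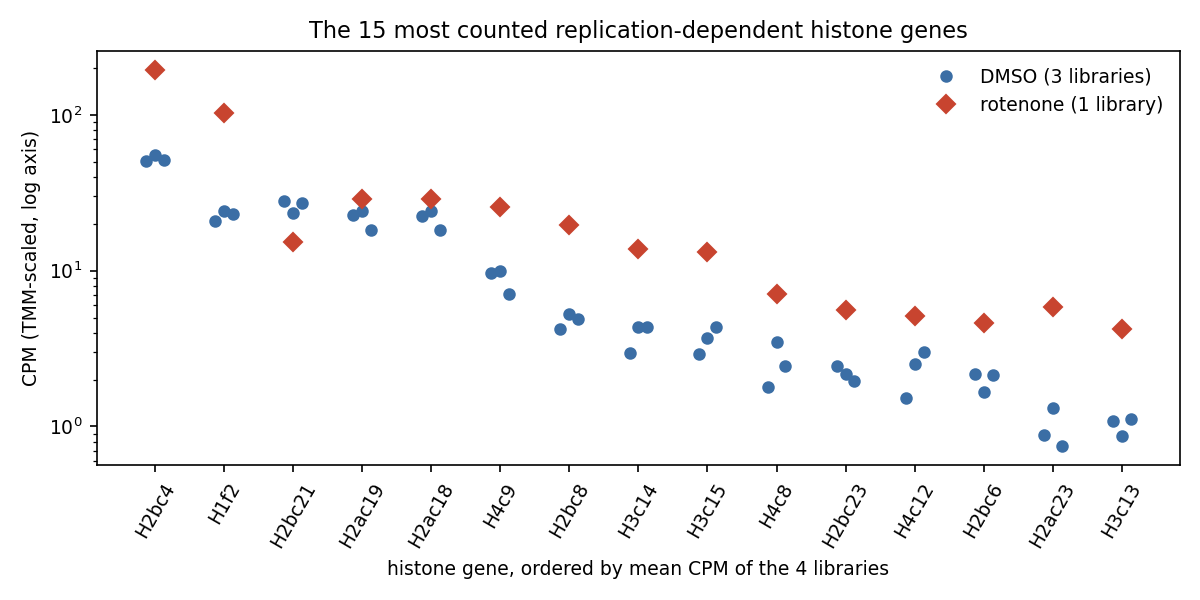
CPM (log axis) of the 15 most counted histone genes in each library, with circles for the 3 DMSO libraries and a diamond for the rotenone library. The diamond lies above all circles in every gene except H2bc21, where it lies below, and the gap is smallest in H2ac18 and H2ac19.

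The linker histone H1 had the largest ratio of summed levels of the 5 types. The H1 genes summed to 23.3, 26.1 and 25.1 CPM with DMSO and 109 CPM with rotenone, a ratio of 4.38. H1f2 (chr13:23738807-23739531), which encodes one of the main somatic linker histones, supplied 91.5% of the DMSO sum and 94.9% of the rotenone sum. H1f2 was at 20.9, 24.3 and 23.1 CPM with DMSO and 103 CPM with rotenone, and rose by 2.18 ± 0.09 (log2 fold change ± SE, adjusted p = 6.6e-13 by edgeR with Benjamini-Hochberg adjustment). H1f4 was at 0.878, 0.346 and 0.749 CPM with DMSO and 2.76 with rotenone and rose by 2.06 ± 0.53 (adjusted p = 0.0029). These were the H1 genes that passed the test. H1f3 (log2 0.88 ± 0.55, adjusted p = 0.18) and H1f5 (0.92 ± 0.79, adjusted p = 0.33) did not pass, though their rotenone values lay above every DMSO library. Without H1f2 the H1 sum differed by a ratio of 2.62.

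H2B had the largest summed CPM of the types, without adjustment for transcript length, and was the one with calls in both directions. Its genes summed to 91.7, 91.1 and 91.9 CPM with DMSO and 251 CPM with rotenone, a ratio of 2.74. Of 15 tested, 6 rose, 1 fell and 8 did not pass. H2bc4 (chr13:23684199-23692480, annotated with 2 exons) was at 50.9, 55.0 and 51.5 CPM with DMSO and 195 CPM with rotenone and rose by 1.90 ± 0.07 (adjusted p = 8.4e-14). It made up 57.3% of the H2B sum with DMSO and 77.8% with rotenone, and without it the ratio of the other H2B genes was 1.43. Per kb of its longest annotated transcript H2bc4 was at 45.4 CPM per kb with DMSO and 169 with rotenone, the highest level of any member in both groups. With DMSO the H2A gene H2ac19 followed at 41.1 CPM per kb, a gap within its spread, and with rotenone H1f2 followed at 66.2 CPM per kb.

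H2bc21 (chr3:96221072-96223738) was the 1 histone gene that fell. It was at 28.2, 23.5 and 27.0 CPM with DMSO and 15.3 CPM with rotenone, below every DMSO library, a log2 fold change of -0.78 ± 0.14 (adjusted p = 1.1e-04). With DMSO it was the second highest member in CPM and held 13% of all histone gene CPM, against 2.76% with rotenone. Its annotated transcript is 2620 bases long with 2192 bases after the stop codon. No stem-loop match was found within 150 bases after the stop codon, and the bases beyond were not searched. None of its 100-base stretches is shared with another member. When a coefficient of variation of 20% was assumed for every gene, H2bc21 kept its value but did not pass (-0.78 ± 0.36, adjusted p = 0.099).

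The other H2B genes that rose were at lower levels. H2bc8 (chr13:23571400-23571863) was at 4.22, 5.30 and 4.87 CPM with DMSO and 19.6 with rotenone and rose by 2.03 ± 0.18 (adjusted p = 2.3e-08). H2bc23 was at 2.43, 2.18 and 1.95 CPM against 5.62 (1.36 ± 0.29), and H2bc6 at 2.16, 1.66 and 2.13 against 4.63 (1.22 ± 0.32). These 3 separate clearly from DMSO. H2bc8 shares 305 identical bases with H2bc4, and 94.6% of the 100-base stretches of H2bc23 are shared with other genes. Reads of H2bc8 and H2bc23 may therefore be divided with other genes, or counted for more than 1 gene, in an unknown way. H2bc3 (2.51 ± 0.89, adjusted p = 0.022) and H2bc14 (2.73 ± 1.04, adjusted p = 0.032) rose from few counts: H2bc3 had 3, 3 and 9 counts with DMSO and 21 with rotenone, and H2bc14 had 5, 0 and 6 against 18. The value of H2bc3 was 3.28 without DMSO replicate 3, and the call of H2bc14 was lost without DMSO replicate 2. The H2B genes that did not pass were H2bc1, a testis-type H2B, with H2bc7, H2bc9, H2bc11, H2bc12, H2bc13, H2bc15 and H2bc22; their log2 fold changes ran from 0.87 to 2.03, and each rotenone value was above every DMSO library.

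H2A had the most genes called and the smallest ratio of sums. The H2A genes summed to 53.4, 59.8 and 44.7 CPM with DMSO and 92.5 CPM with rotenone, a ratio of 1.76, and 12 of 15 tested rose. The sum was dominated by H2ac18 (chr3:96245497-96246052) and H2ac19 (chr3:96239779-96240374), whose fold changes were the smallest among the called members. H2ac19 was at 22.7, 24.2 and 18.2 CPM with DMSO and 28.8 with rotenone (log2 0.40 ± 0.14, adjusted p = 0.021), and H2ac18 at 22.5, 24.1 and 18.2 against 28.8 (0.41 ± 0.14, adjusted p = 0.019). The call of both was lost with library-size scaling, with the correction for transcript length and with an assumed variation of 20%, and that of H2ac19 also without DMSO replicate 3. The whole H2ac19 transcript of 528 bases is contained in H2ac18, and their counts were 667 and 671, 696 and 700, 487 and 487 in DMSO and 584 and 584 with rotenone, so they are in effect 1 measurement and their separate values are uncertain.

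The other H2A genes were low with DMSO, and 10 of them rose. H2ac23 was at 0.878, 1.32 and 0.749 CPM with DMSO and 5.86 with rotenone (2.57 ± 0.37, adjusted p = 7.5e-06), and H2ac24 at 0.574, 1.11 and 0.674 against 4.29 (2.44 ± 0.43). H2ac23 and H2ac24 share 452 identical bases, so reads may have been split between them or counted for both. H2ac15 rose by 3.03 ± 0.92 (adjusted p = 0.0088), from 6, 0 and 8 counts with DMSO to 28 with rotenone. This was the largest fold change among members in the fit of all 4 libraries, but it was 2.45 without DMSO replicate 2, below H4c3, H2ac23 and H2ac24, and 3.69 without DMSO replicate 3. Among the rest, H2ac7 went from 0.810, 0.900 and 0.524 CPM to 3.06 (2.02 ± 0.47) and H2ac12 from 0.709, 1.35 and 0.674 to 3.60 (1.97 ± 0.45). H2ac11 went from 0.371, 0.762 and 0.861 to 2.71 (2.03 ± 0.53) and H2ac4 from 0.675, 0.692 and 0.187 to 2.07 (1.98 ± 0.64). These genes are of similar low level and fold, but they share sequence. H2ac7 shares 360 identical bases with H2ac12, 338 with H2ac13 and 293 with H2ac4, and H2ac11 shares 362 with H2ac23 and with H2ac24. Their reads may be divided between them, or counted for more than 1 of them, so they may not be separate rises. H2ac8 was at 0.777, 1.94 and 0.636 CPM with DMSO and 3.60 with rotenone (1.68 ± 0.49, and 2.34 without DMSO replicate 2), H2ac13 at 0.608, 0.831 and 0.973 against 2.56 (1.67 ± 0.49) and H2ac6 at 0.709, 1.42 and 1.61 against 3.40 (1.45 ± 0.43). H2ac10, H2ac20 and H2ac22 did not pass, with log2 fold changes of 0.75, 1.40 and 0.66, and H2ac22 lay within the DMSO range.

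H3 genes were low in level, and most of them rose. They summed to 14.1, 15.2 and 16.0 CPM with DMSO and 50.6 with rotenone, a ratio of 3.36, which was 3.29 without the highest member, and 9 of 11 tested rose. H3c14 (chr3:96246685-96247348) was at 2.97, 4.36 and 4.38 CPM with DMSO and 13.8 with rotenone (1.82 ± 0.22, adjusted p = 1.2e-06), and H3c15 at 2.90, 3.70 and 4.34 against 13.2 (1.86 ± 0.23, adjusted p = 1.0e-06). H3c14 and H3c15 share 666 identical bases, and both share 399 with H3c13, which was at 1.08, 0.865 and 1.12 CPM against 4.24 (2.05 ± 0.38). Reads of these 3 genes may therefore be divided between them, or counted for more than 1 of them, in an unknown way. The other H3 genes that rose were H3c4 (1.73 ± 0.40), H3c8 (1.84 ± 0.45), H3c3 (1.95 ± 0.46), H3c10 (1.97 ± 0.60), H3c2 (1.47 ± 0.45) and H3c11 (1.31 ± 0.47), at DMSO means of 0.532 to 1.12 CPM. H3c1 (1.49 ± 0.69, adjusted p = 0.072) did not pass, nor did H3c6 (-0.12 ± 0.82), which had 29, 8 and 18 counts with DMSO and 12 with rotenone.

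H4 genes summed to 17.6, 20.5 and 16.5 CPM with DMSO and 49.3 with rotenone, a ratio of 2.71, and 7 of 12 tested rose. H4c9 (chr13:22040960-22041362) was at 9.66, 9.97 and 7.04 CPM with DMSO and 25.7 with rotenone (1.53 ± 0.17, adjusted p = 4.4e-07). It supplied 48.8% of the H4 sum with DMSO and 52.1% with rotenone, and without it the ratio was 2.54. H4c8 was at 1.79, 3.46 and 2.43 CPM against 7.09 (1.47 ± 0.31), and H4c12 at 1.52, 2.53 and 3.00 against 5.12 (1.13 ± 0.34). H4c3 (2.63 ± 0.84), H4c4 (1.99 ± 0.80), H4c17 (1.74 ± 0.68) and H4c18 (1.75 ± 0.67) rose, with 2 to 29 counts in each DMSO library, and H4 genes encode the same or nearly the same protein. H4c17 and H4c18 share 366 identical bases. The calls of H4c4 and H4c17 were lost without DMSO replicate 2, and those of H4c4, H4c17 and H4c18 without DMSO replicate 3. The value of H4c3 was 3.58 without DMSO replicate 2, and that of H4c17 was 2.45 without DMSO replicate 1. H4c1, H4c2, H4c6 and H4c11 did not pass, at 0.76, 1.25, 1.48 and 1.37, and H4c14 lay within the DMSO range with 31, 4 and 16 counts against 11 (-0.14 ± 0.93).

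**Figure D3:**
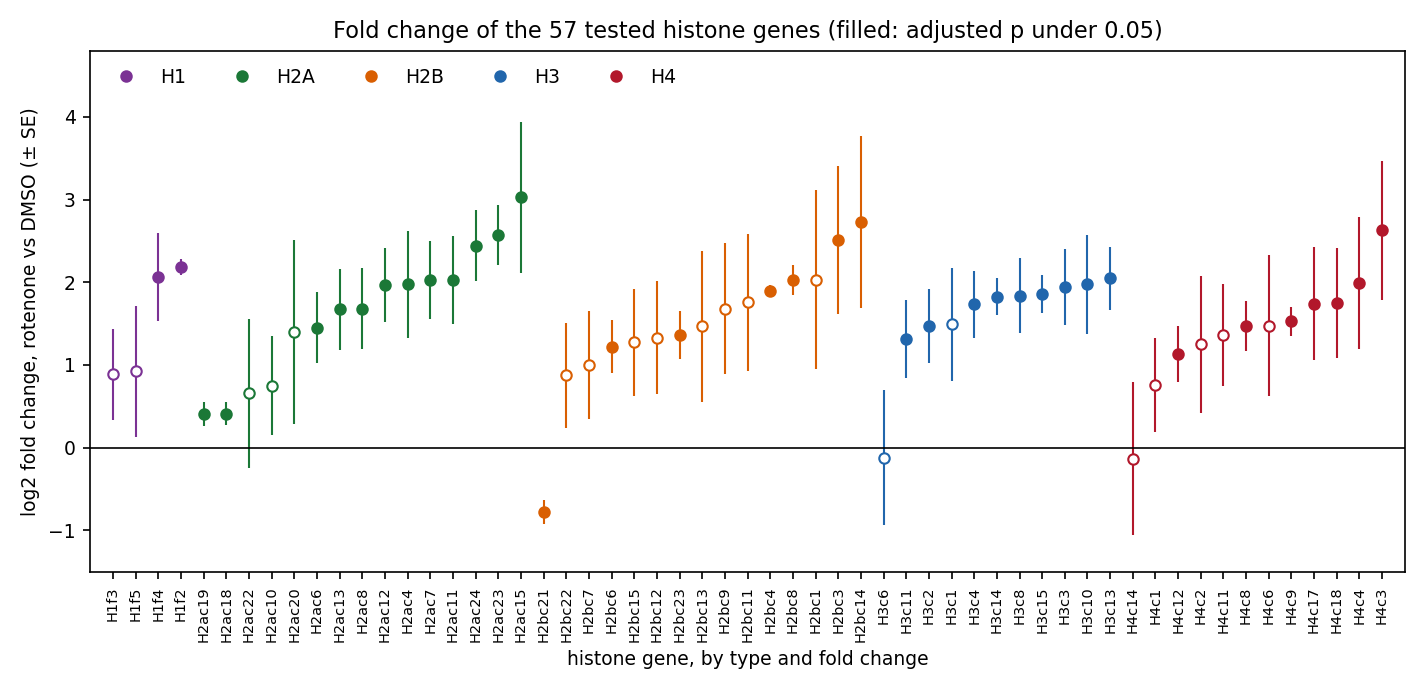
Log2 fold change of rotenone against DMSO with its SE for the 57 tested histone genes, grouped by type, with filled circles for members past the threshold. Bars lengthen toward the genes of few counts, 54 of the values are above 0, and H2bc21 is the one filled circle below it.

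**Figure D4:**
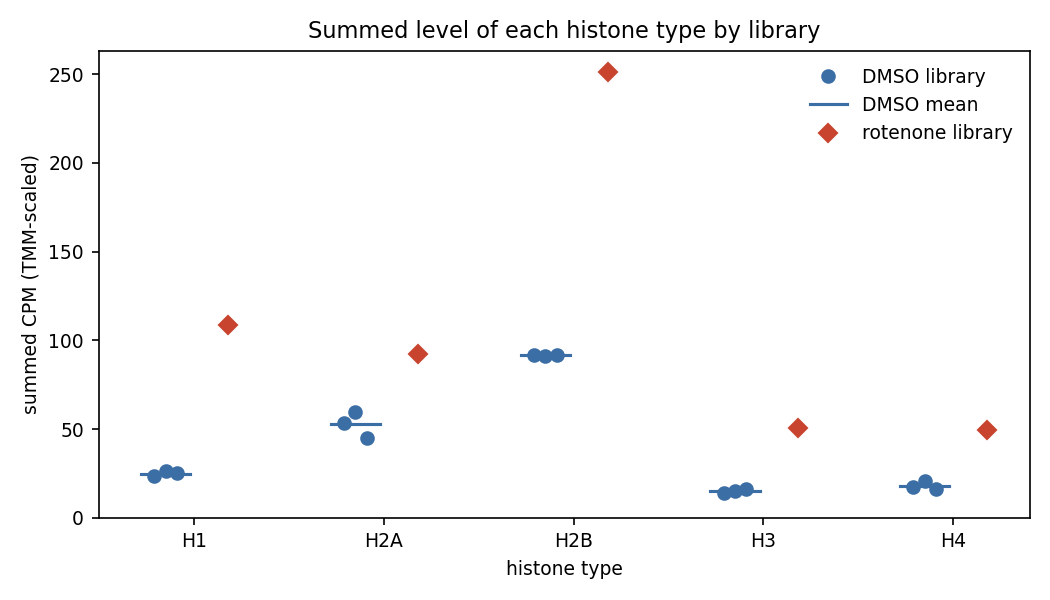
Summed CPM of the members of each histone type, with circles for the 3 DMSO libraries, a line for their mean and a diamond for the rotenone library. The rotenone value lies above every DMSO library in all 5 types, by a ratio of 1.76 in H2A to 4.38 in H1.

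The sums of some types were made up largely of 1 or 2 genes. H1f2 made up most of the H1 sum, H2bc4 of the H2B sum, and H2ac18 with H2ac19 of the H2A sum, whereas the ratios of H3 and H4 moved little without their highest member. Medians over the tested members lay closer together, at 1.49 for H1, 1.68 for H2A, 1.47 for H2B, 1.82 for H3 and 1.47 for H4. No difference between types was tested.

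By genomic position, the chromosome 13 cluster held 51 members and the chromosome 3 cluster 10. On chromosome 13, 31 of 49 tested rose and 0 fell, and the sum went from 123 ± 7.1 CPM (SD, n = 3) to 447, a ratio of 3.63. The count of lower chromosome 13 members was also 0 at an unadjusted p under 0.05 in edgeR, and by DESeq2 and limma-voom. On chromosome 3, 5 of 8 tested rose and 1 fell, and the sum went from 79.1 ± 4.3 CPM to 105, a ratio of 1.33. The chromosome 3 value was composed of unlike parts: its 3 H3 genes all rose, with a ratio of 3.64, its H2A genes had a ratio of 1.33 and its H2B genes 0.590. H2bc21, H2ac18 and H2ac19, the high members with the lowest values, all lie on chromosome 3, in a stretch that also holds H3c14, which rose by 1.82.

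In 10 pairs, an H2A and an H2B gene are transcribed away from each other with 278 to 334 bases between their coding parts. Both members of a pair rose in 3 of the 10, H2ac6 with H2bc4, H2ac8 with H2bc8, and H2ac23 with H2bc23. The separate values of H2bc8, H2ac23 and H2bc23 are uncertain because these genes share sequence with others. One member rose and the other did not pass in 5 pairs, and neither rose in 2. In the pair of H2ac20 and H2bc21, H2bc21 fell and H2ac20 had a log2 fold change of 1.40 that did not pass, at 2, 6 and 6 counts with DMSO and 9 with rotenone. The levels of partners could lie far apart: H2bc4 averaged 52.5 CPM with DMSO and its partner H2ac6 1.25.

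Grouped by DMSO level, members rose in every bin that held a tested gene. Of 42 members at a DMSO mean of 0.1 to 1 CPM, 39 were tested and 20 rose, with a ratio of sums of 3.21. Of 13 members at 1 to 10 CPM, 12 rose and the ratio was 3.11. Of the 5 members at 10 CPM and over, 4 rose and H2bc21 fell, with a ratio of 2.57 and a median of 0.41, the value of H2ac18. Because the DMSO values also enter the fold change, the members were also grouped by the mean of the 4 libraries. Then 9 of 27 tested members rose at 0.1 to 1 CPM, where 4.77% of all genes were called higher, 22 of 24 at 1 to 10 CPM, where 15.9% were, and 5 of 6 at 10 CPM and over, where 35.8% were. The members' medians were 1.48, 1.78 and 0.97 in these bins, and those of all genes -0.50, -0.28 and 0.03.

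Histone transcripts are short, and short transcripts as a whole were higher with rotenone. In the shortest of 10 equal groups of genes by transcript length (43 to 1170 bases) the median log2 fold change was 0.26 and 36.6% were called higher, and in the longest it was -0.26 and 16.4%. Of the histone genes 49 lay in that shortest group. After the median of each length group was subtracted, 29 members were called higher and 1 lower, the members' median was 1.41 and the log2 ratio of summed CPM was 1.24. When 1 copy of each pair with at least 300 identical bases was kept, 48 members remained, of which 26 rose and 1 fell. The exons of H1f4 and H2bc6 overlap by 838 bases, and whether strand was used in counting is not given, so their counts may include each other's reads.

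Members were also divided by the annotated 3′ end. Those with a stem-loop and over 100 bases annotated after it numbered 19, of which 12 of 18 tested rose (ratio of sums 3.71, median 1.68). Those with a stem-loop and up to 100 bases after it numbered 22, all tested, of which 15 rose (1.85, median 1.74). Of the 4 without a match, 2 rose and 1 fell (2.67, median 1.115). Without H2ac18 and H2ac19 the ratio of the second group was 3.58. The first group was left whole, though H1f2 made up 41.5% of its DMSO sum and 50.8% of its rotenone sum, so 3.71 and 3.58 are not like measures. Whether poly(A) RNA was selected is not stated in the labels, and its part in these values was not tested.

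Of 15 genes for histone mRNA transcription and 3′ processing, 5 rose, 2 fell and 8 did not pass, with a median log2 fold change of 0.14. For this and the following lists, the shares called over all genes were 27.6% higher and 28.5% lower, and the share higher here was near the first of these. Slbp, which binds the stem-loop, was at 85.2, 78.7 and 78.4 CPM with DMSO and 61.3 with rotenone and fell by 0.40 on the log2 scale (SE 0.08, adjusted p = 4.6e-04). Zfp473, part of the U7 processing particle, fell from 2.03, 1.94 and 2.81 CPM to 0.641 (-1.81 ± 0.50). Npat, the coactivator of histone gene transcription, rose slightly, from 33.2, 32.2 and 36.5 CPM to 41.8 (0.30 ± 0.11, adjusted p = 0.022), a call lost with library-size scaling and without DMSO replicate 2. Ncbp1, a cap-binding subunit, rose by 0.64 ± 0.08. With an assumed coefficient of variation of 20% Slbp, Npat and Ncbp1 did not pass. Hinfp, an H4 gene activator (0.11 ± 0.13), and Casp8ap2 (-0.25 ± 0.13) did not pass.

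Of 19 histone chaperones and chromatin assembly factors, 7 rose and 3 fell (median 0.09), beside 27.6% higher and 28.5% lower over all genes. Ipo4, an importer of histones, rose by 1.11 ± 0.10, and Asf1a, an H3-H4 chaperone, by 0.84 ± 0.10, while Atrx, which helps deposit H3.3, fell (-0.78 ± 0.10). Of 11 replication-independent histone variants, 9 rose and 0 fell, with a median of 0.45. The count lower was also 0 at an unadjusted p under 0.05 in edgeR, and by DESeq2 and limma-voom. Their summed level of 2230 ± 36 CPM with DMSO (SD, n = 3) went to 3084. Cenpa, the centromeric H3, rose by 0.78 ± 0.08, H2aj by 0.72 ± 0.09, H3f3b, an H3.3 gene, by 0.70 ± 0.07, H2ax by 0.56 ± 0.09, H1f0 by 0.41 ± 0.06 and H2az1 by 0.39 ± 0.06, and none of these calls held with an assumed variation of 20%. The variants summed to more CPM than the replication-dependent genes in every library. Whether poly(A) RNA was selected is not stated, so this compares counts in these libraries and not mRNA amounts in the cells.

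Of 42 genes of DNA replication and S phase, 18 rose, 4 fell and 20 did not pass, with a median of 0.20, beside 27.6% higher and 28.5% lower over all genes. Mcm2, a replicative helicase subunit, rose by 1.24 ± 0.07, Ccna2 by 0.77 ± 0.07 and Pcna by 0.58 ± 0.07, and Ccne2 fell (-0.88 ± 0.12). Of 20 genes of G2 and mitosis, 15 rose and 1 fell (median 0.62), with Cdc20 at 1.27 ± 0.07, Aurka at 1.16 ± 0.09 and Plk1 at 1.09 ± 0.11. Mki67, a marker of cycling cells, was at 158, 135 and 150 CPM with DMSO and 134 with rotenone and did not pass (-0.14 ± 0.08, adjusted p = 0.18).

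**Figure D5:**
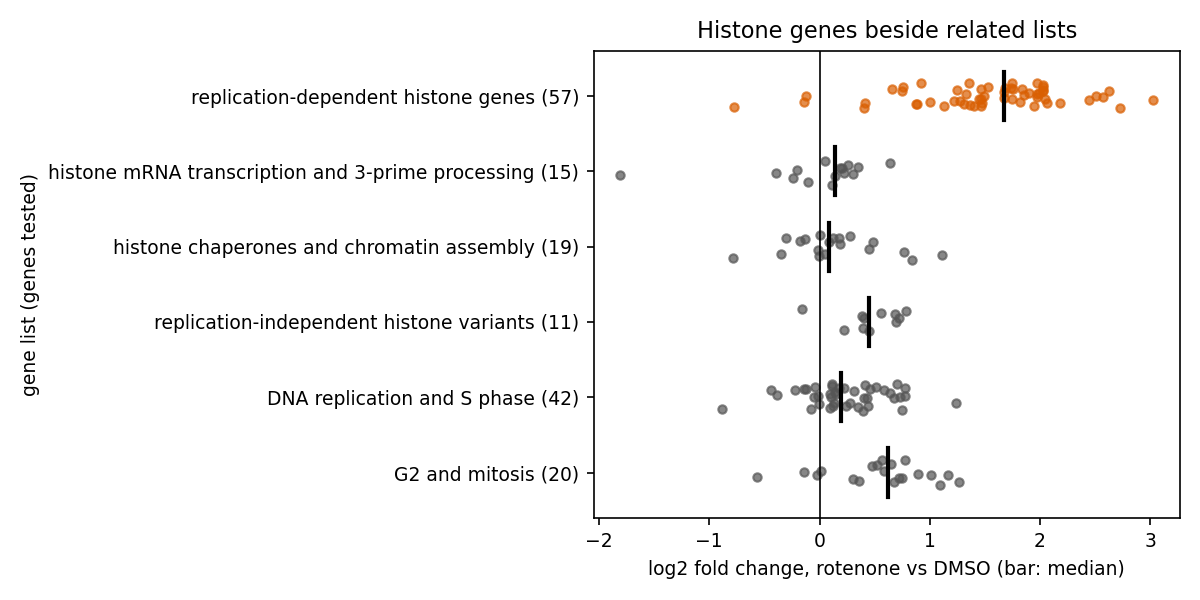
Log2 fold change of rotenone against DMSO for the tested members of the replication-dependent histone genes (orange) and of 5 related lists (grey), with a bar at each median and the number of genes tested in brackets. The histone genes have a median of 1.67, and the medians of the other lists run from 0.09 to 0.62.

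Markers of the cell types that the cultures could hold differed as follows. Of 8 adipocyte markers, 7 fell and 0 rose (median -0.74), and 0 rose at an unadjusted p under 0.05 in edgeR or by DESeq2 and limma-voom. Those that fell included Cebpa (-2.31 ± 0.08), Lipe (-1.88 ± 0.07), Ucp1 (-1.86 ± 0.21) and Adipoq (-0.43 ± 0.08). The preadipocyte and fibroblast markers, 10 genes, had 7 that rose and 1 that fell (median 1.16). Their sum went from 1437, 1613 and 1506 CPM to 4374, and Acta2 rose by 2.46 ± 0.06, Tagln by 2.43 ± 0.08 and Thy1 by 1.71 ± 0.10. Most of the rotenone sum came from Col1a1 (2121 CPM), Acta2 (852), Tagln (654) and Col3a1 (477). The member that fell was Pdgfra, a preadipocyte receptor, from 20.7, 19.3 and 18.5 CPM to 9.07 (-1.11 ± 0.16). Dlk1 (1.38 ± 0.10) and Pdgfrb (0.94 ± 0.10) rose, and Ly6a (0.78 ± 0.30) and Cd34 (0.02 ± 0.40) did not pass. Pdgfra, Dlk1, Pdgfrb, Ly6a, Cd34, Col1a1, Col3a1, Cd14, Csf1r and Pecam1 are named after their values were seen. Of 6 macrophage markers 2 were tested. Cd68 rose (2.38 ± 0.23) and held 15.5 of the 16.7 CPM to which the list summed with rotenone, against sums of 3.99, 4.40 and 4.38 with DMSO. Cd14 did not pass (-0.06 ± 0.60), Csf1r had a DMSO mean of 0.106 CPM and 0 counts with rotenone, and Adgre1 and Ptprc were at 0 in every library. Of 6 endothelial markers 3 were tested and Eng (1.25 ± 0.33) and Egfl7 (0.62 ± 0.23) rose while Pecam1 did not pass (0.37 ± 1.00), with a sum of 7.60, 6.61 and 7.45 CPM against 13.2. The part of these cell types in the histone values was not tested, and in bulk RNA fewer cells of a type and less RNA per cell cannot be told apart.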

How the data were processed

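The deposited files hold raw counts, as whole numbers for each of 26214 gene symbols. Trizol RNA went into NEBNext Ultra RNA libraries, per the labels' protocols; per the submitters' processing notes, TopHat2 and mm10 were used, with no version. Not given in the sources used here are the counting program, annotation, strand setting, handling of multi-mapped reads and poly(A) selection, so values of near-identical or overlapping genes are uncertain.

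The 3 identical rotenone files entered once. Counts were scaled by TMM and filtered with filterByExpr in edgeR 4.0.16 (R 4.3.3), leaving 14709 genes. The test was edgeR's quasi-likelihood F test (robust) of 1 rotenone library against 3 DMSO libraries, with 2 residual degrees of freedom; p-values were adjusted by Benjamini-Hochberg over all genes tested, with a threshold of 0.05. Adjusted p-values in the report are of this kind, except where an assumed variation of 20% is named. The SE is the size of the log2 fold change divided by the square root of F. With an assumed variation of 20%, a likelihood ratio test in edgeR replaced the F test, and its statistic replaced F. Sums over members got no test. DESeq2 1.42.0 and limma 3.58.1 (voom) were alternatives, as were other scalings, filters, leaving out each DMSO library, every file as a library, an assumed coefficient of variation of 20% and a transcript length correction; leaving out near-identical copies was chosen after seeing the data. The script was tested on simulated data.

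The members and all lists were chosen with earlier results of these data known. Named genes are the highest and the called members, fixed genes of histone and cell cycle biology, and, from each list, at most 3 genes past the threshold whose changes were largest. All 61 symbols matched GENCODE M21 and RefSeq, and 56 had a promoter entry.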

Additional observations from a re-analysis of the deposited data

How the results depend on the processing

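No paired analysis was possible because the 3 rotenone files hold the same counts and make 1 library, so numbers in the titles pair nothing and no replicate block could be fitted. Against 36 members called higher and 1 lower, the other scalings, filters and tools called 30 to 40 higher. The transcript length correction gave 29, an assumed coefficient of variation of 20% gave 43 and every file as a library gave 50. The setting of 20% also used a likelihood ratio test in place of the F test, so 36 and 43 differ in more than the variation. Without each DMSO library in turn 33 to 37 were called higher and 1 lower: leaving out DMSO replicate 2 lost H2bc14, H4c4 and H4c17, and leaving out DMSO replicate 3 lost H2ac19, H4c4, H4c17 and H4c18. The number lower was 0 only with an assumed variation of 20%, where 1 was lower at an unadjusted p of 0.05 in edgeR, and DESeq2 and limma-voom called 1. The log2 ratio of summed CPM of 1.45 was 1.33 with library-size scaling, 1.24 after the length correction and 1.25 without H2bc4. Without each DMSO library it ran from 1.42 to 1.49. Library-size scaling moved the median of all genes from -0.04 to -0.16. No called member changed direction under these alternatives; members that did not pass were not followed. Of the genes named outside the histone set, 15 changed from called to not called with an assumed variation of 20%, and of those that had not passed, Casp8ap2 (0.02) and Mki67 (0.13) turned positive after the length correction and Hinfp (-0.01) negative with library-size scaling. H2bc21 ran from -0.90 to -0.72. Calls lost under more than 1 alternative were those of H2ac18, H2ac19, H3c11, H4c4, H4c17, H4c18 and H2bc14, and that of H2bc3 was lost with DESeq2; the cause was not tested. H2ac15, H2bc3, H2bc14, H4c3 and H4c4 averaged under 0.5 CPM and were therefore not tested under the filter on the mean. With 1 rotenone library, its own variation is unmeasured. Genes of few counts had SE values up to 1.11 on the log2 scale, which limits what can be said of single low members.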
